A study of Mus musculus with 10 samples.

Results

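The nuclear genes of respiratory complex I were taken as all protein-coding genes whose mouse symbol starts with Nduf. The rule found 46 of the 48709 genes in the count tables, and all 46 passed the filter on low counts that left 16884 genes for testing. They comprise 36 genes of structural subunits, 8 genes of Ndufaf assembly factors and 2 genes kept apart, Ndufa4, whose protein is now assigned to complex IV, and its relative Ndufa4l2. The 4 Nduf pseudogenes in the tables were not taken, and Ndufb1 was not analysed here. The RNA came from mouse hippocampal neurons in primary culture, kept from day 10 to day 12 in vitro, and all cultures were exposed for 48 h to lipid nanoparticles. The cargo was scramble RNA in 2 libraries (control), an inhibitor of microRNA miR-409-5p in 4 libraries (anti-miR-409-5p) and an inhibitor of miR-501-3p in 4 libraries (anti-miR-501-3p). Polyadenylated RNA was read as single-end 50-base reads on a HiSeq2000. The labels name no strain, sex, culture or day of preparation, so the p-values below measure the spread between these libraries, which may be technical. Both comparisons with control use the same 2 control libraries.

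Complex I is the entry point of NADH into the respiratory chain. Its N module oxidises NADH and passes the electrons along iron-sulfur clusters, its Q module hands them to ubiquinone, and its membrane arm pumps protons. The mitochondrial genome encodes the hydrophobic core of the membrane arm, and the nucleus encodes the remaining core subunits, the accessory subunits around them and the factors that put the modules together. Neurons rely heavily on oxidative phosphorylation for their ATP, and mutations in many of the genes below cause Leigh syndrome and related encephalopathies.

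The targeted microRNAs are shown first because an anti-miR is designed to relieve transcripts that pair with bases 2 to 8 of its microRNA, the seed, given here in capitals from the RefSeq tables of build GRCm38.p6. Mature microRNAs are not measured in polyadenylated RNA, so the loss of either was not analysed here.
mmu-miR-409-5p (chr12:109743172-109743194, plus strand): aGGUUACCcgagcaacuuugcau
mmu-miR-501-3p (chrX:7241270-7241291, minus strand): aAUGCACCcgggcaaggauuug
In GENCODE M21, the longest 3' UTR annotated for a gene was searched for the complement of bases 2 to 8, or of bases 2 to 7 followed by A, as GGTAACC or GTAACCA for miR-409-5p and as GGTGCAT or GTGCATA for miR-501-3p. These searches were on the transcript strand, and the letters of a pair overlap in a full site of both. A site stood in 2 of 46 Nduf genes (4.35%) for each microRNA, against 9.85% and 13.0% of 14207 tested genes with a UTR. The Nduf UTRs had a median length of 235 bases, against 1219 bases for tested genes. The matching stretches follow, with the pairing bases in capitals, because they are the only matches found in the 46 Nduf UTRs.
Ndufb2, miR-409-5p: tgtgagcaagcGTAACCAgtccagaggct
Ndufab1, miR-409-5p: gacggtacctcGTAACCAtggagctggaa
Ndufa6, miR-501-3p: cctgatgggaaGGTGCATgttaatattta
Ndufaf4, miR-501-3p: acgtcacacaaGGTGCATgaaatttacat
Under anti-miR-409-5p, Ndufb2 had a log2 fold change of -0.037 ± 0.068 (SE) and Ndufab1 of 0.13 ± 0.09, and neither passed edgeR's test (adjusted p = 0.733 and 0.311). Under anti-miR-501-3p, Ndufa6 was lower (-0.23 ± 0.044) and Ndufaf4 higher (0.55 ± 0.066), and both passed (edgeR adjusted p = 0.000847 and 1.74e-05). Both also passed in the same direction under anti-miR-409-5p, whose microRNA has no such site in them (-0.26 and 0.49, edgeR adjusted p = 0.000504 and 8.8e-05). The direct difference between the anti-miRs was 0.03 ± 0.037 for Ndufa6 and 0.066 ± 0.052 for Ndufaf4 (edgeR adjusted p = 0.926 and 0.881). A match of letters is a description of the sequence and not evidence of pairing.

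Library totals ran from 22254788 to 32096808 counts. Genes of the mitochondrial genome took 2.59% and 2.78% of the counts in control and 3.33% to 3.95% in the anti-miR libraries. The slope of log2 counts on transcript GC content, per 10 percentage points and relative to the mean library, was 0.272 and 0.203 in control, -0.108 to 0.038 under anti-miR-409-5p and -0.131 to 0.0083 under anti-miR-501-3p. These libraries therefore differed from control in GC trend as well as in treatment. Among cell type markers, the summed level of 6 pan-neuronal genes was 6232 to 6365 CPM (counts scaled by TMM to a common library size) in control, 6538 to 6873 CPM under anti-miR-409-5p and 6383 to 6882 CPM under anti-miR-501-3p. The 6 astrocyte markers summed to 2287 to 2317, 2288 to 2377 and 2197 to 2305 CPM, in the same order. Sums of the 6 oligodendrocyte lineage markers were 450 to 622, 412 to 511 and 347 to 489 CPM, and those of the 6 microglia markers 15.3 to 16, 13.6 to 15.5 and 14.6 to 18.1 CPM, with 3 of the microglia markers under 1 CPM. The part of glial or neuronal share in the results below was not tested. In bulk RNA, fewer cells of a type and less RNA per cell cannot be told apart.

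Levels of different genes were compared as CPM per kb of the longest principal transcript, in the 2 control libraries. Ndufa4 stood highest at 364 ± 2.9 CPM per kb (SD, n = 2). The highest structural subunit was Ndufb9, a subunit at the far end of the membrane arm, at 167 ± 0.0029 CPM per kb, and Ndufa3, of the proximal arm, followed at 124 ± 0.16 CPM per kb. Ndufa7 (119), Ndufa6 (117), Ndufb8 (111), Ndufa11 (111), Ndufa2 (109) and Ndufa1 (108) came next, and their order is within the spread of Ndufa7 (SD 6) and Ndufa1 (SD 7). Of the core subunits, which form the catalytic centre, those described below lay between 33.9 CPM per kb for Ndufs3 and 79.0 for Ndufv1. At the low end stood Ndufab1 (2.9 ± 0.08), Ndufa4l2 (3.3 ± 1), Ndufb4 (3.65 ± 0.29) and Ndufb2 (4.73 ± 0.13). Several of these low values rest on the transcript chosen. With the shortest principal transcript Ndufb2 had 45.4, Ndufab1 7.12 and Ndufc1 97.4 CPM per kb, the last against 24.6 with the longest. The assembly factors, which act on intermediates and leave the finished complex, ranged from 5.95 CPM per kb (Ndufaf6) to 27.5 (Ndufaf5), below all 7 core subunits. Of the 46 genes, 19 share exon bases with another gene, 17 of them on the opposite strand, and the kit does not mark strand. In 22 genes some 50-base windows of the transcript also occur in another gene, and in 7 (Ndufs3, Ndufb4, Ndufb6, Ndufs5, Ndufa13, Ndufa12 and Ndufb9) more than 20% do, so the counts of these genes are less certain.

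**Figure D1:**
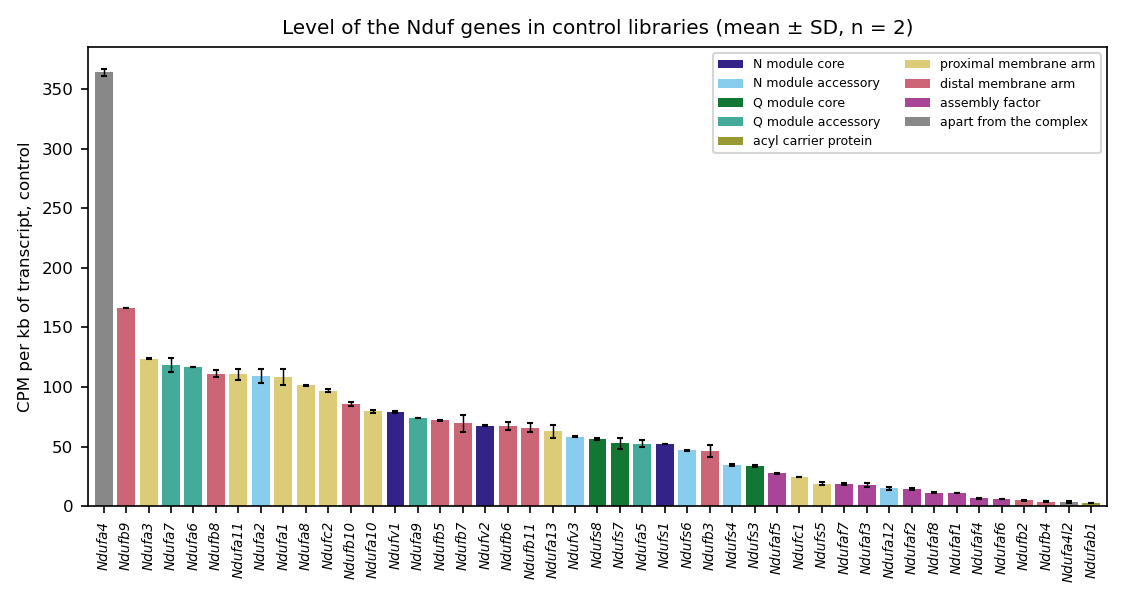
Level of Nduf genes in the control libraries, in CPM per kb of transcript (bars, mean of 2 libraries; error bars, SD), coloured by role and sorted by level. Ndufa4 stands apart at 364 CPM per kb, the core subunits drawn lie between 33.9 and 79.0 and the assembly factors between 5.95 and 27.5.

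Transcripts of most complex I subunits were slightly less abundant under either anti-miR than under scramble RNA, at 0.777 to 0.902 times the control level under anti-miR-409-5p and 0.776 to 0.893 times under anti-miR-501-3p where they passed the test. The assembly factors were mixed. Summed over the 36 subunits, the level was 2420 and 2357 CPM in the control libraries, 2205, 2224, 2163 and 2073 CPM under anti-miR-409-5p and 2193, 2165, 2137 and 2133 CPM under anti-miR-501-3p. No anti-miR library reached a control library in this sum. Group means were 2388 ± 45.1 CPM (SD, n = 2), 2166 ± 67.2 CPM (n = 4) and 2157 ± 27.9 CPM (n = 4). The 8 assembly factors summed to 155.8 and 156.1 CPM in control, 161 ± 4.31 CPM (SD, n = 4) under anti-miR-409-5p and 162 ± 3.02 CPM (n = 4) under anti-miR-501-3p.

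In edgeR's quasi-likelihood test with Benjamini-Hochberg adjustment over all 16884 genes, 21 of 36 subunits fell and 0 rose under anti-miR-409-5p, where 12.2% of all tested genes fell and 15.6% rose. Under anti-miR-501-3p 22 of 36 subunits fell and 0 rose, against 15.4% and 17.6% of all genes. At an unadjusted p under 0.05, edgeR had 22 lower and 1 higher (Ndufc2) under anti-miR-409-5p and 23 lower and 0 higher under anti-miR-501-3p. At an adjusted p of 0.05, DESeq2 called 19 and 22 lower and 0 higher. The median log2 fold change of the subunits was -0.18 under anti-miR-409-5p (range -0.36 to 0.13) and -0.19 under anti-miR-501-3p (range -0.37 to 0.10), beside -0.012 over all tested genes in each comparison. All 4 anti-miR-409-5p libraries lay below both controls for 24 of 36 subunits, as they did for 24% of all tested genes. The same held under anti-miR-501-3p for 25 of 36 subunits and 25.6% of all genes. With upper-quartile scaling 22 and 24 subunits fell and 0 rose, while the calls over all genes shifted from 2062 lower and 2634 higher to 3074 and 2233 under anti-miR-409-5p, and from 2605 and 2974 to 3607 and 2540 under anti-miR-501-3p. Subunits that fell in both comparisons numbered 21, and Ndufb10, named after its values were seen, fell under anti-miR-501-3p alone (-0.17 against -0.12 under anti-miR-409-5p; with edgeR, adjusted p = 0.00902 and 0.0591). Tested directly, the anti-miRs differed for it by -0.048 ± 0.038 (edgeR adjusted p = 0.878). With upper-quartile and with total-count scaling Ndufb10 passed under anti-miR-409-5p too (adjusted p = 0.0163 and 0.0144 with edgeR). The 14 subunits that passed in neither were Ndufs1, Ndufv2, Ndufs4, Ndufa12, Ndufa5, Ndufa9, Ndufab1, Ndufa10, Ndufc1, Ndufc2, Ndufb2, Ndufb4, Ndufb5 and Ndufb6.

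**Figure D2:**
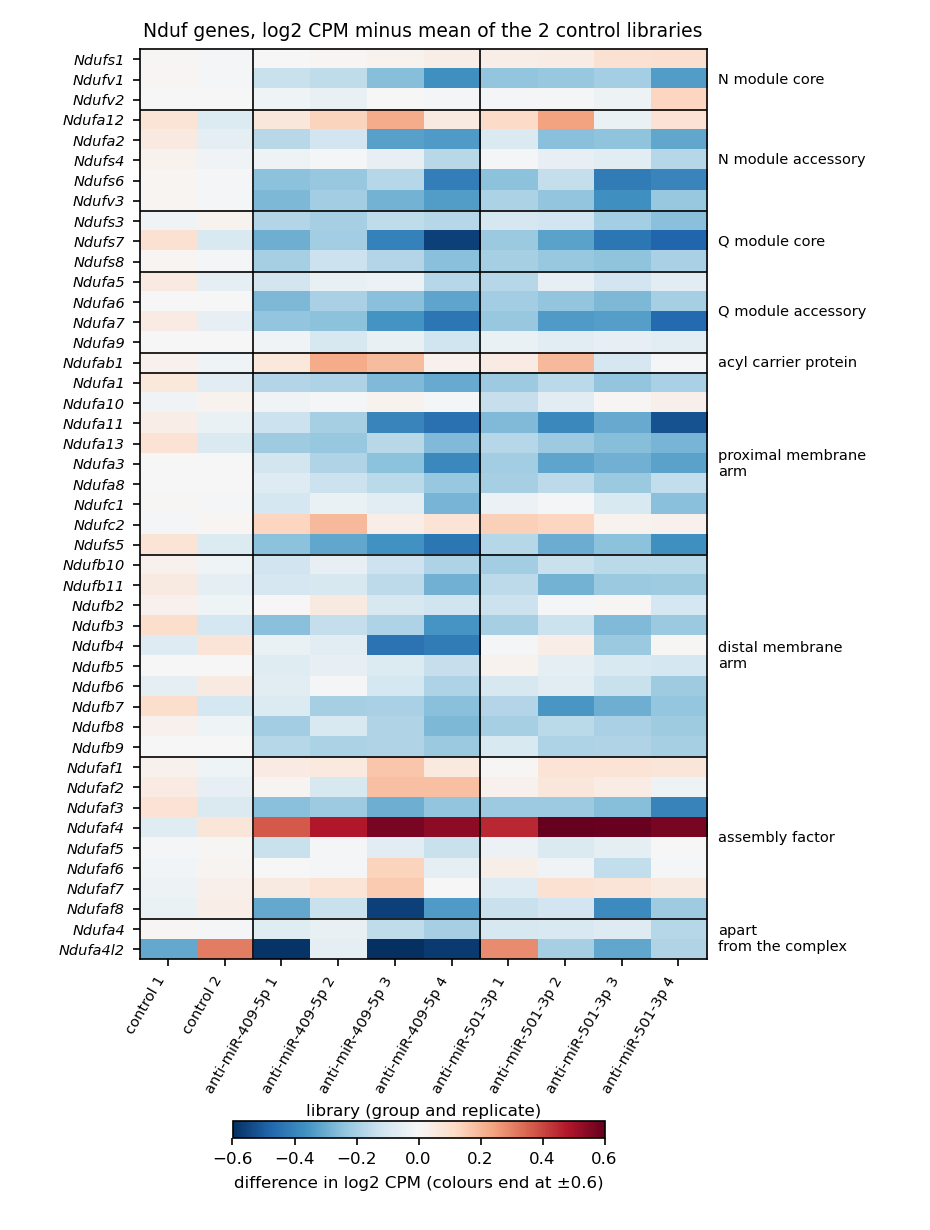
Each row is an Nduf gene and each column a library. Colour gives log2 CPM minus the mean of the 2 control libraries, ending at ±0.6, with genes grouped by role. Most subunit rows are blue in all 8 anti-miR columns, the rows of Ndufs1, Ndufc2 and Ndufa12 are pale or red, and Ndufaf4 is the dark red row among the assembly factors.

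**Figure D3:**
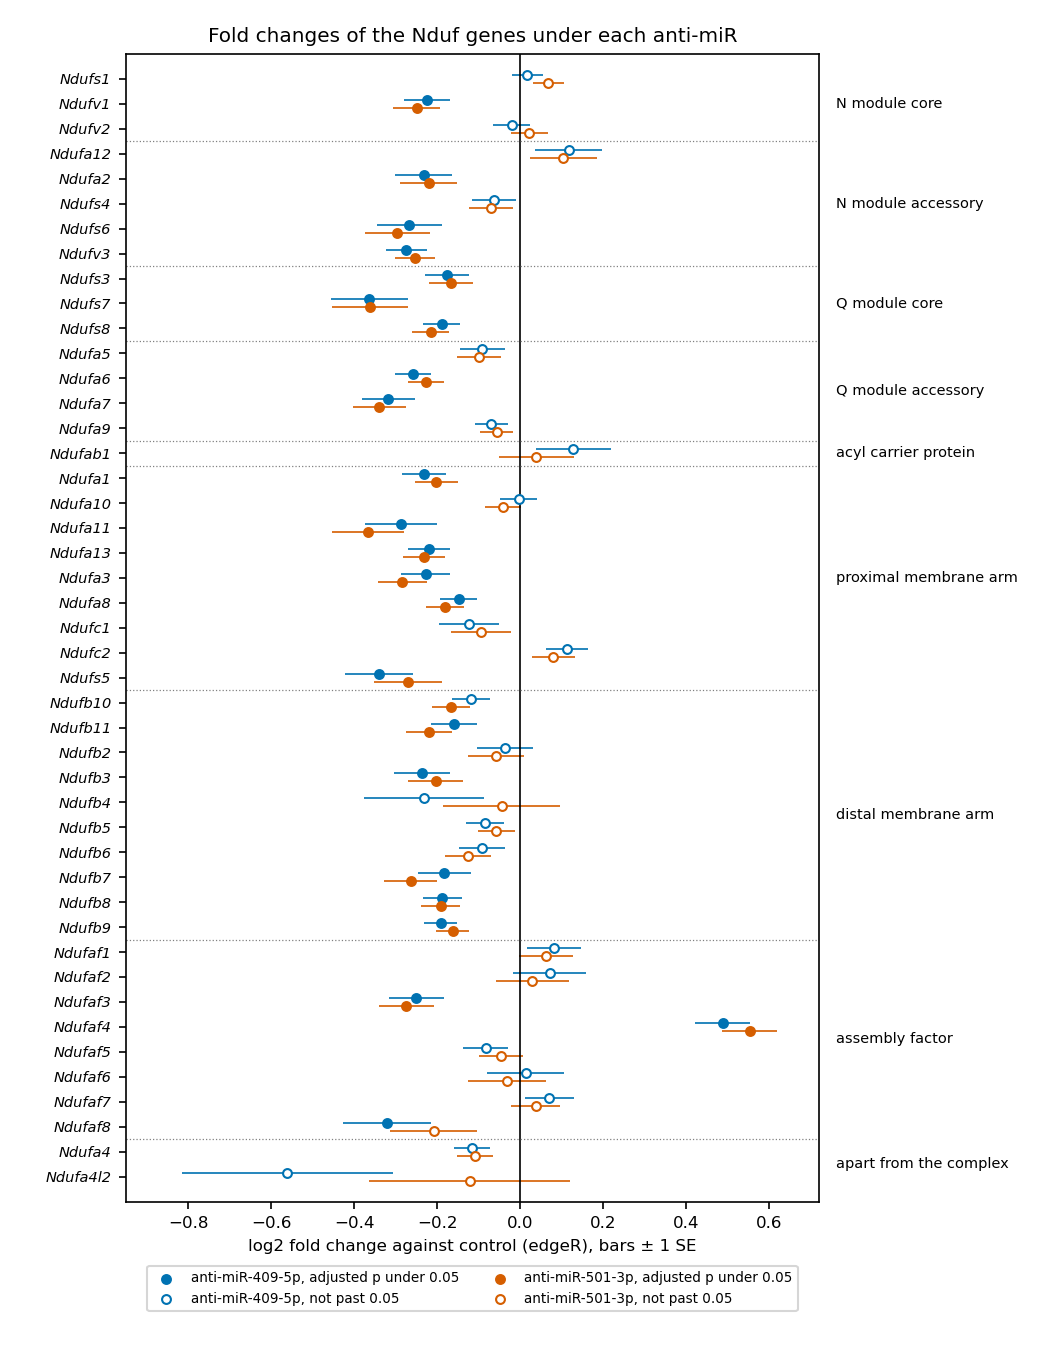
Log2 fold change of Nduf genes against control under each anti-miR (points, edgeR estimate; bars, ± 1 SE; filled points passed an adjusted p of 0.05). Filled points lie left of zero in every role group of subunits except the acyl carrier protein, and Ndufaf4 is the filled pair right of zero.

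These counts changed with the control libraries that entered the fit. Without control replicate 1, edgeR called 2 subunits lower under anti-miR-409-5p, Ndufa6 and Ndufv3, beside 0.977% of all genes, and 6 under anti-miR-501-3p, among them Ndufa3, Ndufa6, Ndufa7, Ndufs8 and Ndufv3, beside 1.57%. Without control replicate 2 the counts were 15 and 21. The subunits' median log2 fold changes were -0.13 and -0.15 without control replicate 1 and -0.19 and -0.20 without control replicate 2. A fit with 1 surrogate variable called 2 subunits lower under anti-miR-409-5p (again Ndufa6 and Ndufv3) and 15 under anti-miR-501-3p, where Ndufa2, Ndufb3, Ndufb10, Ndufb11, Ndufs3, Ndufs5 and Ndufs6 were lost. Calls ended without control replicate 1 in 38 cases over both comparisons and all Nduf genes, at log2 fold changes between 0.322 and 1.07 times those with all libraries. In 12 of these cases, of Ndufa1, Ndufa13, Ndufaf3, Ndufb3, Ndufb7, Ndufb11 and Ndufs5, the log2 fold change shrank by more than 1.5 times, and in the others it did not. Where a call ended without any other library (34 cases), the log2 fold change was 0.735 to 1.3 times its value with all libraries. In these fits a lone control library was assumed to vary like the other groups.

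The fold changes of the subunits varied with the GC content and with the length of their transcripts. The subunit transcripts had a median GC content of 52.2% (42.0% to 60.4%) and a median length of 939.5 bases, against 50.0% and 2863 bases for all tested genes. Across the 36 subunits, which share their libraries, the Spearman correlation of log2 fold change with GC content was -0.55 under anti-miR-409-5p and -0.65 under anti-miR-501-3p, given as a description. With log transcript length it was 0.59 and 0.57, in the same order. Of the 11 subunits above 55% GC, 10 fell under anti-miR-409-5p and 11 under anti-miR-501-3p, where 37.1% and 45% of all genes in that range fell. Between 50 and 55% GC, 8 of 12 fell in each comparison, against 10.6% and 15.4% of all genes. Between 45 and 50%, 2 of 8 fell in each, against 2.03% and 2.32% of all genes. Below 45%, 1 of 5 fell in each, against 0.202% of all genes. In that lowest range the median log2 fold change of all genes was 0.27 and 0.30, and that of the 5 subunits -0.064 and -0.071. Above 55% the medians were -0.17 and -0.19 for all genes and -0.22 and -0.25 for the subunits. Within every GC range the subunit median lay below that of all genes in both comparisons. The ranges were not matched for transcript length, and the part of length in these differences was not tested.

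Another fit removed from each library its trend on transcript GC content and log length. It called 7 subunits lower under anti-miR-409-5p, beside 2.25% of all tested genes, and 8 under anti-miR-501-3p, beside 3.09%, with 0 higher in each. The subunit medians became -0.076 in both comparisons. Among the 36 subunits the Spearman correlation of log2 fold change with GC content became 0.46 and 0.48. The GC trend within the subunits thus changed sign and was not removed. The calls that remained were Ndufa1, Ndufa7, Ndufb3 and Ndufs5 under anti-miR-409-5p and Ndufa1, Ndufa3, Ndufa7 and Ndufb3 under anti-miR-501-3p. The corrected fit also called genes of low GC content that had not passed before, Ndufs1, Ndufs4 and Ndufv2 under anti-miR-409-5p and Ndufs4, Ndufv2, Ndufb2 and Ndufc1 under anti-miR-501-3p. With the replicate block added to this correction, Ndufa7 under anti-miR-409-5p and Ndufb2 and Ndufc1 under anti-miR-501-3p were no longer called, and Ndufc2 was called higher in both comparisons (0.18 and 0.14). Below 45% GC and without the block, 3 and 5 of the 5 subunits were lower (5.49% and 6.6% of all genes), and above 55% 1 of 11 in each comparison (0.324% and 0.647%). A correction of this kind can take out cellular differences too, and whether treatment or library preparation set the GC trend cannot be told apart.

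**Figure D4:**
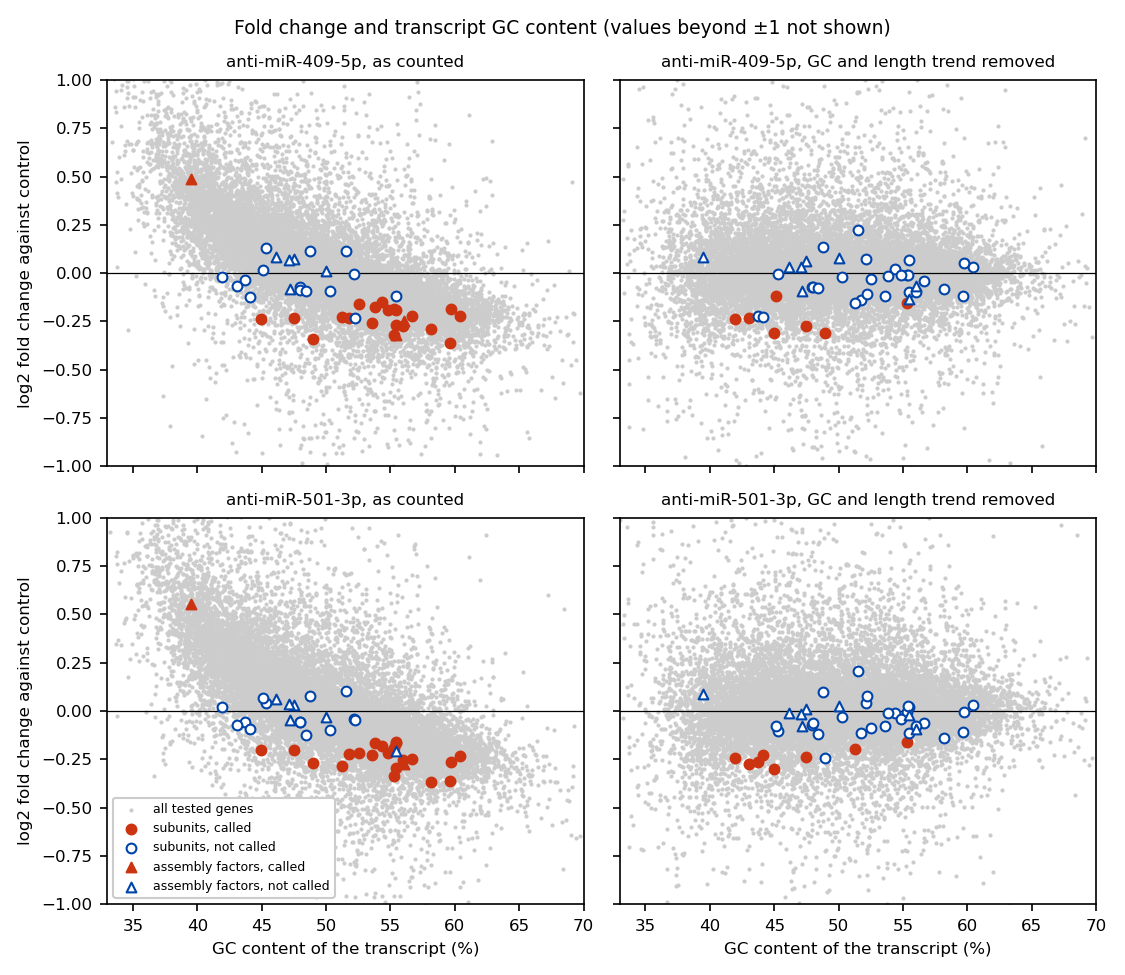
Log2 fold change against control and GC content of the transcript for all tested genes (grey), subunits (circles) and assembly factors (triangles), filled red where the adjusted p passed 0.05. The upper panels show anti-miR-409-5p and the lower anti-miR-501-3p, before (left) and after (right) the GC and length correction; fold changes of all genes decline with GC content on the left, and the called subunits move from the GC-rich to the GC-poor side.

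In the N module, whose core subunits take electrons from NADH, Ndufv1 fell and its partners did not pass the test. Ndufv1 (chr19:4007384-4012806, minus strand, mm10) encodes the subunit that binds NADH and flavin mononucleotide. Its level was 132 and 130.1 CPM in control replicates 1 and 2, 119.5, 118, 109.9 and 102 CPM in the 4 anti-miR-409-5p libraries and 111, 112, 114 and 104 CPM in the 4 anti-miR-501-3p libraries, in order of replicate. All 8 anti-miR libraries lay below both controls, at means of 112 ± 8.25 and 110.3 ± 4.35 CPM (SD, n = 4) against 131 ± 1.52 CPM (n = 2). The log2 fold change was -0.22 ± 0.056 with edgeR under anti-miR-409-5p (adjusted p = 0.00681) and -0.25 ± 0.056 under anti-miR-501-3p (adjusted p = 0.00257). Ndufv2 (chr17:66078638-66101559, minus strand), which binds Ndufv1 and carries an iron-sulfur cluster, had 114 and 115 CPM in control, 113, 111, 115 and 114 CPM under anti-miR-409-5p and 114, 114, 112 and 125 CPM under anti-miR-501-3p. Replicate 4 of anti-miR-501-3p stood above all others, and the groups overlapped. Its log2 fold changes were -0.021 ± 0.045 and 0.022 ± 0.045 (edgeR adjusted p = 0.779 and 0.756). Ndufs1 (chr1:63143596-63176833, minus strand), the largest subunit of the module and the holder of most of its clusters, had 139.6 and 139 CPM in control, 139, 140.2, 141 and 143 CPM under anti-miR-409-5p and 143, 144, 148 and 149 CPM under anti-miR-501-3p. All 4 anti-miR-501-3p libraries were above both controls, but its log2 fold changes of 0.017 ± 0.037 and 0.068 ± 0.037 did not pass (edgeR adjusted p = 0.777 and 0.172).

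These core N module calls depended on the library set and on base composition. Ndufv1 no longer passed without control replicate 1 (log2 fold change -0.20 and -0.23, edgeR adjusted p = 0.109 and 0.059). After the GC and length correction the order within the module turned round. Ndufv1 had -0.04 and -0.065 (edgeR adjusted p = 0.659 and 0.338), whereas the GC-poorer Ndufv2 had -0.24 in each comparison (edgeR adjusted p = 0.000594 and 0.000309). Ndufs1 had -0.12 and -0.078 (edgeR adjusted p = 0.0252 and 0.135).

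Of the 5 accessory subunits of the N module, 3 fell in both comparisons. Ndufv3, a small accessory protein at the tip of the matrix arm, had 93.0 and 91.7 CPM in control, 76.5, 79.8, 75.7 and 73.2 CPM under anti-miR-409-5p and 80.9, 78.4, 71.6 and 78.8 CPM under anti-miR-501-3p. Each anti-miR library lay below both controls, with log2 fold changes of -0.27 ± 0.049 with edgeR under anti-miR-409-5p (adjusted p = 0.000725) and -0.25 ± 0.049 under anti-miR-501-3p (adjusted p = 0.000888). Ndufs6, a zinc-binding subunit that is added late in assembly, had 26.8 and 26.4 CPM in control, 22.3, 22.7, 23.6 and 19.9 CPM under anti-miR-409-5p and 22.4, 24.0, 19.8 and 20.2 CPM under anti-miR-501-3p. It too was lower in all 8 libraries, by log2 fold changes of -0.27 ± 0.078 and -0.30 ± 0.078 (adjusted p = 0.0174 and 0.00752 with edgeR). Ndufa2, a protein with a thioredoxin-like fold, had 64.8 and 60.1 CPM in control, 55.6, 57.7, 49.7 and 49.4 CPM under anti-miR-409-5p and 58.8, 52.4, 52.8 and 50.3 CPM under anti-miR-501-3p. No anti-miR library reached a control, and the log2 fold changes were -0.23 ± 0.069 and -0.22 ± 0.069 (edgeR adjusted p = 0.0206 and 0.022). Ndufs4 and Ndufa12, named after their values were seen, had log2 fold changes of -0.064 and -0.071, and 0.12 and 0.10, with none past the test (edgeR adjusted p from 0.302 to 0.396). Ndufs4, a gene often mutated in Leigh syndrome, passed after the GC and length correction (-0.23 and -0.27, edgeR adjusted p = 0.0324 and 0.00852), while Ndufv3, Ndufs6 and Ndufa2 no longer did.

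Among these accessory genes Ndufv3 passed with any library left out. Once control replicate 1 was left out, edgeR's log2 fold changes were -0.24 and -0.27 for Ndufs6 (adjusted p = 0.161 and 0.0985) and -0.16 and -0.15 for Ndufa2 (adjusted p = 0.278 and 0.291). Ndufs6 under anti-miR-409-5p also ended without control replicate 2 (0.0773). Ndufa2 ended under anti-miR-409-5p without that group's replicate 3 (0.0627) or 4 (0.0528), and under anti-miR-501-3p without replicate 2 (0.0639), 3 (0.0501) or 4 (0.0688).

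In the core of the Q module, which binds ubiquinone and holds the last iron-sulfur clusters before it, Ndufs7, Ndufs8 and Ndufs3 fell under both anti-miRs. Ndufs7 (chr10:80249121-80256794, plus strand, mm10), which holds the terminal cluster N2, showed the largest change of the core subunits described. Its level was 55.1 and 48.6 CPM in control replicates 1 and 2, 42.2, 44.8, 39.0 and 35.1 CPM in the 4 anti-miR-409-5p libraries and 44.3, 41.4, 38.3 and 37.3 CPM in the 4 anti-miR-501-3p libraries, in order of replicate. Control replicate 1 was higher than replicate 2, and all 8 anti-miR libraries were below both. Means were 40.3 ± 4.17 and 40.3 ± 3.19 CPM (SD, n = 4) against 51.9 ± 4.62 CPM (n = 2), and the log2 fold change was -0.36 ± 0.092 with edgeR under anti-miR-409-5p (adjusted p = 0.0125) and -0.36 ± 0.092 under anti-miR-501-3p (adjusted p = 0.01). Ndufs8 (chr19:3908863-3912774, minus strand), a ferredoxin-like subunit, had 57.2 and 56.3 CPM in control, 49.4, 51.9, 50.2 and 47.7 CPM under anti-miR-409-5p and 49.4, 48.5, 48.1 and 49.5 CPM under anti-miR-501-3p. It was lower in every anti-miR library, with -0.19 ± 0.045 and -0.22 ± 0.045 (edgeR adjusted p = 0.00501 and 0.00148). Ndufs3 (chr2:90894634-90904827, minus strand), an early building block of the module, had 34.9 and 36.0 CPM in control, 31.4, 30.9, 31.9 and 31.5 CPM under anti-miR-409-5p and 33.1, 32.7, 30.8 and 29.8 CPM under anti-miR-501-3p. Its groups did not overlap, at -0.18 ± 0.053 and -0.17 ± 0.053 (edgeR adjusted p = 0.0204 and 0.0225).

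With control replicate 1 left out, Ndufs7 had log2 fold changes of -0.26 in each comparison (edgeR adjusted p = 0.191 and 0.17) and Ndufs3 of -0.19 and -0.18 (0.116 and 0.115). The call of Ndufs8 ended then under anti-miR-409-5p alone (-0.16, edgeR adjusted p = 0.0997). Ndufs3 also ended without control replicate 2 (0.162 and 0.17), without anti-miR-409-5p replicate 2 (0.054), and without anti-miR-501-3p replicate 3 (0.0553) or 4 (0.0756). None of these 3 genes passed after the GC and length correction, where their log2 fold changes were -0.12 and -0.11 for Ndufs7, -0.017 and -0.0095 for Ndufs3 and -0.011 and -0.04 for Ndufs8. Of the 50-base windows of the Ndufs3 transcript, 39.7% also occur in transcripts of another gene, so its counts could be split or shared.

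**Figure D5:**
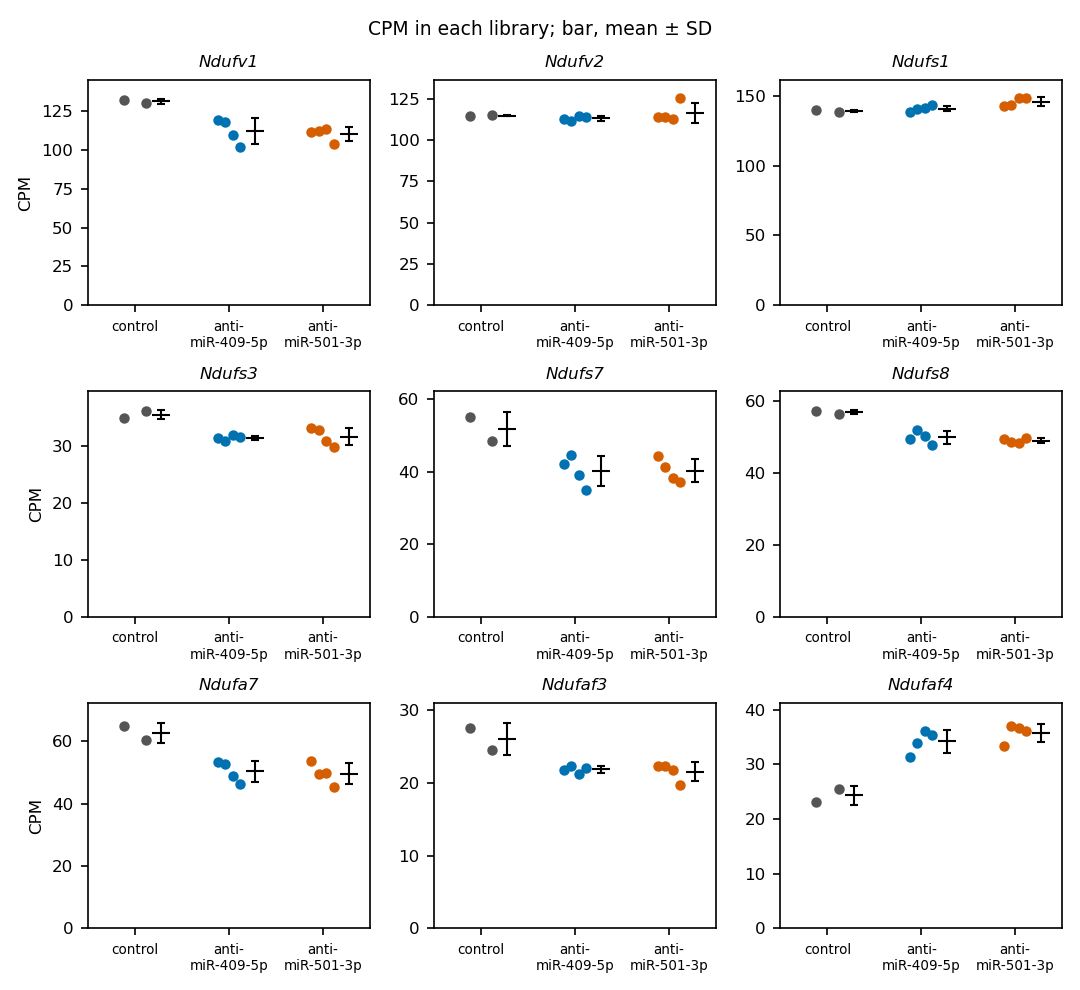
CPM in each library (points, in order of replicate) for core subunits of the N and Q modules, Ndufa7 and the assembly factors Ndufaf3 and Ndufaf4, with the mean and SD of each group (n = 2 control, n = 4 per anti-miR). Every axis starts at 0; Ndufv1, Ndufs3, Ndufs7, Ndufs8, Ndufa7 and Ndufaf3 are lower in all 8 anti-miR libraries, Ndufaf4 is higher in all 8, and Ndufv2 and Ndufs1 stay near control.

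Among the 4 accessory subunits of the Q module, Ndufa6 and Ndufa7 fell in both comparisons. Ndufa6 (chr15:82350140-82354322, minus strand, mm10) is a LYR-motif protein that docks an acyl carrier protein onto the matrix arm. It was at 69.1 and 69.1 CPM in control replicates 1 and 2, 57.3, 60.3, 58.1 and 55.5 CPM in the 4 anti-miR-409-5p libraries and 59.9, 58.6, 57.4 and 60.1 CPM in the 4 anti-miR-501-3p libraries, in order of replicate. The control libraries were nearly equal, all anti-miR libraries were below them, and the log2 fold change was -0.26 ± 0.044 with edgeR under anti-miR-409-5p (adjusted p = 0.000504) and -0.23 ± 0.044 under anti-miR-501-3p (adjusted p = 0.000847). Ndufa7 (chr17:33824572-33838317, plus strand), a small stabilising protein of the same arm, was at 64.9 and 60.5 CPM in control replicates 1 and 2, 53.2, 52.8, 48.8 and 46.3 CPM in the 4 anti-miR-409-5p libraries and 53.5, 49.4, 49.9 and 45.3 CPM in the 4 anti-miR-501-3p libraries, in order of replicate. Again no anti-miR library reached a control, and the log2 fold change was -0.32 ± 0.064 with edgeR under anti-miR-409-5p (adjusted p = 0.00182) and -0.34 ± 0.064 under anti-miR-501-3p (adjusted p = 0.000794). Ndufa5, which braces the arm near its base, was at 47.6 and 44.2 CPM in control, 42.4, 44.4, 44.8 and 40.7 CPM under anti-miR-409-5p and 40.7, 44.2, 42.3 and 43.8 CPM under anti-miR-501-3p. The groups overlapped, and log2 fold changes of -0.091 ± 0.054 and -0.10 ± 0.053 did not pass (edgeR adjusted p = 0.22 and 0.166). Leaving out each library gave -0.14 to -0.024 and -0.15 to -0.034, the smallest without control replicate 1, and under anti-miR-501-3p Ndufa5 passed with upper-quartile and total-count scaling (adjusted p = 0.0472 and 0.0387 with edgeR). Ndufa9, a dehydrogenase-like protein named after its values were seen, had -0.07 and -0.057 (edgeR adjusted p = 0.205 and 0.297), and passed under anti-miR-409-5p with total-count scaling (-0.11, 0.0467).

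Ndufa6 passed in both comparisons with any library left out, and lost its calls after the GC and length correction (-0.12 and -0.077, edgeR adjusted p = 0.0899 and 0.288). Ndufa7 kept its calls after that correction (-0.15 and -0.16, edgeR adjusted p = 0.0348 and 0.0201). Under anti-miR-409-5p its call ended when the replicate block was added to the correction (-0.12, edgeR adjusted p = 0.066), and it lost the uncorrected call without control replicate 1 (-0.25, edgeR adjusted p = 0.0717). Ndufab1, the mitochondrial acyl carrier protein, also serves fatty acid and lipoate synthesis. Its level was 10.3 and 9.89 CPM in control, 10.5, 11.8, 11.5 and 10.3 CPM under anti-miR-409-5p and 10.4, 11.5, 9.41 and 10 CPM under anti-miR-501-3p. The groups overlapped, and its log2 fold changes were 0.13 ± 0.09 and 0.039 ± 0.09 (edgeR adjusted p = 0.311 and 0.783), with the sign turning below zero after the GC and length correction (-0.002 and -0.10).

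In the proximal part of the membrane arm, next to the matrix arm, 6 of 9 accessory subunits fell under each anti-miR. Ndufa13, also known as GRIM-19, had 83.2 and 73.8 CPM in control, 67.6, 66.9, 69.9 and 65.1 CPM under anti-miR-409-5p and 69.7, 67.4, 65.7 and 64.6 CPM under anti-miR-501-3p. All anti-miR libraries were below both controls, control replicate 1 being the highest, and the log2 fold changes were -0.22 ± 0.051 and -0.23 ± 0.05 (edgeR adjusted p = 0.004 and 0.00217). Ndufa1, an X-linked membrane protein needed early in assembly of the arm, had 47.5 and 43.4 CPM in control, 40.2, 39.9, 37.8 and 36.9 CPM under anti-miR-409-5p and 39.1, 40.6, 38.5 and 39.7 CPM under anti-miR-501-3p. It too did not overlap control, at -0.23 ± 0.052 and -0.20 ± 0.052 (edgeR adjusted p = 0.00374 and 0.00671). Ndufa3, a small membrane protein, had 63.9 and 63.8 CPM in control, 59.2, 56.3, 53.9 and 48.8 CPM under anti-miR-409-5p and 55.3, 51.2, 52.2 and 51.1 CPM under anti-miR-501-3p. Both controls stood near the same value above all anti-miR libraries, and the log2 fold changes were -0.23 ± 0.06 and -0.28 ± 0.06 (edgeR adjusted p = 0.00941 and 0.00171).

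The other 3 that fell were named after their values were seen. Ndufa11, a membrane protein at the contact with complex III, had the largest fall of any subunit under anti-miR-501-3p (-0.29 ± 0.087 and -0.37 ± 0.087, edgeR adjusted p = 0.0271 and 0.00645), from 60.3 ± 2.46 CPM (SD, n = 2) to 49.4 ± 5.21 and 46.8 ± 3.64 CPM (n = 4). Ndufs5, a disulfide-bonded protein on the intermembrane side, had -0.34 ± 0.082 and -0.27 ± 0.081 (edgeR adjusted p = 0.0055 and 0.0161), and 31.1% of its 50-base windows occur in another gene's transcripts. Ndufa8, a protein of the same fold, had -0.15 ± 0.045 and -0.18 ± 0.045 (edgeR adjusted p = 0.0208 and 0.00515). The 3 that passed in neither comparison were also named afterwards. Ndufc2 had 0.11 and 0.08, Ndufc1 -0.12 and -0.095, and Ndufa10, a relative of nucleoside kinases, -0.0037 and -0.041.

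In the 2 comparisons without control replicate 1, edgeR's log2 fold changes were -0.12 and -0.13 for Ndufa13 (adjusted p = 0.228 and 0.165) and -0.15 and -0.12 for Ndufa1 (adjusted p = 0.166 and 0.24). They were -0.23 and -0.31 for Ndufa11 (adjusted p = 0.246 and 0.107), -0.25 and -0.18 for Ndufs5 (adjusted p = 0.159 and 0.29) and -0.14 and -0.17 for Ndufa8 (adjusted p = 0.163 and 0.0712). Ndufa3 under anti-miR-409-5p had -0.21 without control replicate 1 and -0.22 without control replicate 2 (adjusted p = 0.11 and 0.0609 with edgeR), and it passed under anti-miR-501-3p with any library left out. Under anti-miR-409-5p, Ndufa8 and Ndufa11 also ended without control replicate 2 (0.122 and 0.0716) or anti-miR-409-5p replicate 3 (0.0604 and 0.0673), and Ndufa8 without replicate 4 (0.0589). The GC and length correction left Ndufa1 called in both comparisons (-0.28 and -0.24, edgeR adjusted p = 0.00181 and 0.00449), Ndufs5 under anti-miR-409-5p (-0.31, 0.0177) and Ndufa3 under anti-miR-501-3p (-0.20, 0.0147). Ndufa13 became 0.032 and 0.032, and 28.5% of its 50-base windows are shared with another gene, Tssk6 among them.

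In the distal part of the membrane arm, farthest from the matrix arm, 5 of 10 accessory subunits fell under anti-miR-409-5p and 6 under anti-miR-501-3p. Ndufb9, a LYR-motif protein that binds the distal copy of the acyl carrier protein, had 117 and 117 CPM in control, 104, 103, 104 and 101 CPM under anti-miR-409-5p and 110.1, 103, 104 and 102 CPM under anti-miR-501-3p. The controls were equal to 3 digits, no anti-miR library reached them, and the log2 fold changes were -0.19 ± 0.04 and -0.16 ± 0.04 (edgeR adjusted p = 0.00236 and 0.00517). Ndufb8, a membrane-spanning subunit often used as a marker of assembled complex I, had 76.9 and 74.3 CPM in control, 65.3, 70.8, 66.8 and 62.6 CPM under anti-miR-409-5p and 65.8, 67.5, 66.1 and 65.3 CPM under anti-miR-501-3p. All anti-miR libraries were lower than both controls, at -0.19 ± 0.047 and -0.19 ± 0.047 (edgeR adjusted p = 0.00748 and 0.00496). Ndufb7, a disulfide-bonded protein of the intermembrane face, had 46.5 and 40.1 CPM in control, 40.8, 37.6, 37.8 and 36.3 CPM under anti-miR-409-5p and 38.3, 33.9, 35.2 and 36.7 CPM under anti-miR-501-3p. Replicate 1 of anti-miR-409-5p lay above control replicate 2, so those groups overlapped, and the log2 fold changes were -0.18 ± 0.064 and -0.26 ± 0.064 (edgeR adjusted p = 0.0412 and 0.00458). Ndufb3 and Ndufb11, named after their values were seen, fell by log2 fold changes of -0.24 ± 0.067 and -0.20 ± 0.067, and -0.16 ± 0.056 and -0.22 ± 0.056 (edgeR adjusted p = 0.0144, 0.0256, 0.0405 and 0.00612).

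Ndufb2 and Ndufb4, both among the lowest per length of the longest principal transcript, did not pass. For Ndufb2 the low rank rests on that transcript (4.73 CPM per kb in control, against 45.4 with the shortest). Ndufb2 had 21.1 and 20.3 CPM in control, 20.7, 21.4, 19.3 and 19.0 CPM under anti-miR-409-5p and 18.9, 20.5, 20.7 and 19.2 CPM under anti-miR-501-3p, with groups that overlapped and log2 fold changes of -0.037 ± 0.068 and -0.059 ± 0.068 (adjusted p = 0.733 and 0.55 with edgeR). Ndufb4 had 3.34 and 3.74 CPM in control, 3.44, 3.37, 2.59 and 2.63 CPM under anti-miR-409-5p and 3.51, 3.63, 3.02 and 3.56 CPM under anti-miR-501-3p. Replicates 3 and 4 of anti-miR-409-5p were the lowest, and the log2 fold changes were -0.23 ± 0.14 and -0.045 ± 0.14 (edgeR adjusted p = 0.248 and 0.847). A share of 37.0% of the 50-base windows of Ndufb4 is found in other genes' transcripts, and how reads that map to several places were counted is not given in the sources used here. Ndufb5 (-0.085 and -0.057) and Ndufb6 (-0.092 and -0.13), named afterwards, also did not pass (smallest edgeR adjusted p = 0.0954). Ndufb6 passed under anti-miR-501-3p with upper-quartile and total-count scaling (adjusted p = 0.0312 and 0.0255 with edgeR) and Ndufb5 under anti-miR-409-5p with total-count scaling (0.0488).

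Without control replicate 1, Ndufb7 had -0.059 and -0.14 (edgeR adjusted p = 0.681 and 0.247), Ndufb3 -0.12 and -0.084 (0.402 and 0.543) and Ndufb11 -0.09 and -0.15 (0.47 and 0.187). The log2 fold changes became -0.15 and -0.15 for Ndufb8 (adjusted p = 0.157 and 0.122) and -0.18 and -0.15 for Ndufb9 (adjusted p = 0.0516 and 0.0805), and -0.13 for Ndufb10 under anti-miR-501-3p (0.169). Under anti-miR-409-5p, Ndufb7 and Ndufb11 were further lost without replicate 3 of that group (0.0946 and 0.0875) or 4 (0.105 and 0.119), Ndufb7 without replicate 2 (0.095), Ndufb11 without control replicate 2 (0.0502), and both without anti-miR-501-3p replicate 2, 3 or 4, which enter through the shared spread (from 0.0536 to 0.0606). Both calls under anti-miR-409-5p also ended with DESeq2, with RLE scaling, with a filter of 1 CPM in 2 libraries and in a fit of the 2 groups alone (adjusted p from 0.0508 to 0.061, log2 fold changes from -0.18 to -0.15). Under anti-miR-501-3p, Ndufb3 ended without anti-miR-501-3p replicate 3 (0.0667) or 4 (0.0606). Ndufb3 was the only distal subunit of those that had fallen to pass after the GC and length correction (-0.31 and -0.30, edgeR adjusted p = 0.00313 and 0.00291).

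The assembly factors, which are not part of the finished complex, included genes that rose and genes that fell. Ndufaf4 (chr4:24898083-24905001, plus strand, mm10), which works on early Q module intermediates together with Ndufaf3, rose under both anti-miRs. It was at 23.2 and 25.6 CPM in control replicates 1 and 2, 31.4, 34.0, 36.2 and 35.4 CPM in the 4 anti-miR-409-5p libraries and 33.4, 36.9, 36.7 and 36.1 CPM in the 4 anti-miR-501-3p libraries, in order of replicate. All 8 anti-miR libraries were above both controls, and the level was 1.4-fold and 1.47-fold that of control. Means were 34.2 ± 2.1 and 35.8 ± 1.64 CPM (SD, n = 4) against 24.4 ± 1.72 CPM (n = 2), and the log2 fold change was 0.49 ± 0.066 with edgeR under anti-miR-409-5p (adjusted p = 8.8e-05) and 0.55 ± 0.066 under anti-miR-501-3p (adjusted p = 1.74e-05). Its partner Ndufaf3 (chr9:108565537-108567434, minus strand) fell instead, with 27.6 and 24.5 CPM in control replicates 1 and 2, 21.8, 22.4, 21.2 and 22.1 CPM in the 4 anti-miR-409-5p libraries and 22.3, 22.3, 21.8 and 19.7 CPM in the 4 anti-miR-501-3p libraries, in order of replicate. Every anti-miR library lay below both controls, at log2 fold changes of -0.25 ± 0.067 with edgeR under anti-miR-409-5p (adjusted p = 0.0104) and -0.27 ± 0.067 under anti-miR-501-3p (adjusted p = 0.00458). Ndufaf8, a small protein that stabilises Ndufaf5, had 8.43 and 8.89 CPM in control, 6.99, 7.88, 5.85 and 6.81 CPM under anti-miR-409-5p and 7.89, 7.98, 6.62 and 7.46 CPM under anti-miR-501-3p. No anti-miR library reached a control, and the call passed under anti-miR-409-5p (-0.32 ± 0.11, adjusted p by edgeR = 0.0311) and not under anti-miR-501-3p (-0.21 ± 0.1, edgeR adjusted p = 0.14). Tested against each other, the anti-miRs differed by 0.11 ± 0.089 for Ndufaf8 (edgeR adjusted p = 0.881).

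Under anti-miR-409-5p thus 2 of 8 assembly factors fell and 1 rose, with a median log2 fold change of 0.041, and under anti-miR-501-3p 1 fell and 1 rose, with a median of -0.0018. Of all tested genes 12.2% fell and 15.6% rose in the first comparison and 15.4% and 17.6% in the second, and these counts are not read as particular to the assembly factors. The remaining 5, named after their values were seen, passed in neither comparison. Ndufaf1, part of the assembly complex for the membrane arm, had log2 fold changes of 0.081 and 0.061, and Ndufaf2, which helps to attach the N module, 0.071 and 0.029. Ndufaf5, which hydroxylates an arginine of Ndufs7, had -0.083 and -0.046, and Ndufaf7, a methyltransferase, 0.07 and 0.038. Ndufaf6 had 0.013 and -0.032. Antisense noncoding RNA B230220B15Rik covers 65.6% of all exon bases annotated for Ndufaf2. With a kit that does not mark strand, reads from those shared bases cannot be told apart. The longest principal transcript of Ndufaf2 is shorter, at 678 bases. Of its 629 windows 0 also occur in another gene, so reads lying within that transcript are not shared.

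Ndufaf4 passed with any library left out, but its transcript is the GC-poorest of the Nduf genes (39.5%), and after the GC and length correction its log2 fold change was 0.082 and 0.087 (edgeR adjusted p = 0.42 and 0.325). Ndufaf3 had -0.064 and -0.092 in that fit, and edgeR called 0 assembly factors in either comparison (0 also at an unadjusted p under 0.05). Without control replicate 1, Ndufaf3 had -0.15 and -0.17 (edgeR adjusted p = 0.287 and 0.191) and Ndufaf8 under anti-miR-409-5p -0.34 (0.136). The Ndufaf8 call also ended without control replicate 2 (0.185) or anti-miR-409-5p replicate 3 (0.089) or 4 (0.0652), and with the replicate block (-0.23, 0.0578).

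The genes kept apart from the complex did not pass in either comparison with all libraries and TMM scaling, and both passed under other settings. Ndufa4 was at 223 and 221 CPM in control, 211, 215, 199.7 and 194 CPM under anti-miR-409-5p and 208, 208, 211 and 197 CPM under anti-miR-501-3p. All anti-miR libraries lay below both controls, with log2 fold changes of -0.12 ± 0.044 and -0.11 ± 0.044 (adjusted p = 0.0573 and 0.0659 with edgeR), and after the GC and length correction it passed at -0.23 and -0.24 (edgeR adjusted p = 0.00418 and 0.00191). Ndufa4 also passed in both comparisons with upper-quartile (adjusted p = 0.018 and 0.0183 with edgeR) and total-count scaling (0.0157 and 0.0138), under anti-miR-409-5p without that group's replicate 1 (0.0474) or 2 (0.039), and under anti-miR-501-3p without anti-miR-409-5p replicate 4 (0.0445). Ndufa4l2, a paralogue induced under hypoxia, was low at 2.42 and 3.74 CPM in control, 1.98, 2.89, 1.32 and 2.0 CPM under anti-miR-409-5p and 3.68, 2.61, 2.41 and 2.64 CPM under anti-miR-501-3p. The groups overlapped, and log2 fold changes were -0.56 ± 0.25 and -0.12 ± 0.24 (edgeR adjusted p = 0.117 and 0.748). Leaving out each library moved the first from -0.82 (without control replicate 1) to -0.20 (without control replicate 2). Under anti-miR-409-5p Ndufa4l2 passed with no filter on low counts (-0.55, edgeR adjusted p = 0.0076) and without that group's replicate 2 (-0.78, edgeR adjusted p = 0.0244).

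Compared directly, the anti-miRs did not separate on any Nduf gene. In edgeR's test of anti-miR-501-3p against anti-miR-409-5p, 0 of 46 members passed, as did 0% of all tested genes, and at an unadjusted p under 0.05 the counts were 0 of 46 and 992 of 16884. DESeq2 called 0 of 46. With the replicate number as a block, which pairs same-numbered libraries of the anti-miRs, edgeR again called 0 of 46, with 4 at an unadjusted p under 0.05, but over all genes 98 lower and 154 higher. Subunit log2 differences ran from -0.089 to 0.19 with a median of -0.0096, and those of the assembly factors from -0.045 to 0.11. The widest estimate among all members was 0.44 ± 0.21 for Ndufa4l2 (nominal 95% interval 0.019 to 0.86, edgeR adjusted p = 0.871). The intervals given here are normal approximations from the SE and are narrower than edgeR's test implies. That of Ndufa4l2 leaves out 0 although its unadjusted p was not under 0.05. For Ndufs7 the interval of the difference was -0.15 to 0.15, for Ndufv1 -0.12 to 0.064 and for Ndufaf4 -0.036 to 0.17. Intervals of this width do not show that the anti-miRs act alike.

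Since most subunits moved in the same direction, their promoters were read from RefSeq (GRCm38.p6), as 300 bases from 250 before to 50 after the start. Of 46 genes 40 had an entry, with a median GC content of 59.2%. On both strands, the core of the NRF1 motif (GCATGCGC) stood in 5 of 40 (12.5%), Ndufa6, Ndufa8, Ndufa11, Ndufaf4 and Ndufaf5, and in 2.83% of 27025 promoters. NRF1 is a transcription factor of many nuclear mitochondrial genes. The letters AAGATGG, of the YY1 motif, stood in 8 of 40 (20%) and in 6.43% of all promoters, and CCGGAAG, an ETS motif bound by GABP, in 6 (15%) and 9.21%. CCAAT was found in 14 (35%) and 37.7%, and GGGCGG, of GC boxes, in 21 (52.5%) and 36.2%. The 27025 promoters were not matched to the Nduf promoters for GC content, and its part in these shares was not tested. The examples are a subunit and an assembly factor with the NRF1 core that moved in opposite directions, and core subunits of the Q module with the other motifs. Capitals mark the motif. In Ndufaf4 the core and its reverse complement overlap.
Ndufa6 (chr15:82354242-82354541, minus strand): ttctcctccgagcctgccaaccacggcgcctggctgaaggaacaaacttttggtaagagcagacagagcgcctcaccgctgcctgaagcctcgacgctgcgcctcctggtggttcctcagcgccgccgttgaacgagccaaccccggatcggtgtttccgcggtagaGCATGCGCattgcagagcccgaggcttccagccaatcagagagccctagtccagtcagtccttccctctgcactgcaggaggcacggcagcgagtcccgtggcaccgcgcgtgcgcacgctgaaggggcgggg
Ndufaf4 (chr4:24897833-24898132, plus strand): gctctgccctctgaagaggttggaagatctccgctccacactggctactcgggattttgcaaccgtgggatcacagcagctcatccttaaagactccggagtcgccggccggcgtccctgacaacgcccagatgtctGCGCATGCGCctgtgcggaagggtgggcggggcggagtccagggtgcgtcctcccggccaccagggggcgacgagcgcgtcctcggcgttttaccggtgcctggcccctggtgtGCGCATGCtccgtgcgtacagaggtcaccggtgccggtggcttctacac
Ndufs7 (chr10:80249199-80249498, plus strand): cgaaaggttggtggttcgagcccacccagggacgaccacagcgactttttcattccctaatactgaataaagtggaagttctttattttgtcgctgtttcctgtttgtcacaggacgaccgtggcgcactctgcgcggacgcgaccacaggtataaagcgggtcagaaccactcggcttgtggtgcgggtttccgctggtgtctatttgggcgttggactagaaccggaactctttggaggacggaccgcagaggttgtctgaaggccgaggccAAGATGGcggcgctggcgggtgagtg
Ndufs8 (chr19:3912725-3913024, minus strand): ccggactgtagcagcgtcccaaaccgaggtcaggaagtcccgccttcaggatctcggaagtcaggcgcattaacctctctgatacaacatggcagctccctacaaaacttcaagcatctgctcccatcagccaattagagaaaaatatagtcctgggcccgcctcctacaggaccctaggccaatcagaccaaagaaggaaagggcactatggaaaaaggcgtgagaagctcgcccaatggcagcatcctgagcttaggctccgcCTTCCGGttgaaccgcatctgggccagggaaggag
The first 2 hold the NRF1 core, the third AAGATGG and the last the reverse complement of CCGGAAG. Ndufa6 fell (-0.26 and -0.23) and Ndufaf4 rose (0.49 and 0.55, log2 fold changes, anti-miR-409-5p first) with the same letters near the start. The other 3 with the NRF1 core had -0.15 and -0.18 (Ndufa8), -0.29 and -0.37 (Ndufa11) and -0.083 and -0.046 (Ndufaf5). For Ndufs7 and Ndufs8 the RefSeq start lies 328 and 286 bases from the start of the principal GENCODE transcript used here. A match is a description of the sequence, and no binding was measured.

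The mitochondrially encoded subunits of the same complex moved the opposite way. Of 7 such genes 5 were tested, and mt-Nd3 and mt-Nd4l were listed at 0 in all 10 libraries. Under anti-miR-409-5p 4 of 5 rose and under anti-miR-501-3p all 5, beside 15.6% and 17.6% of all tested genes. Their median log2 fold changes were 0.73 and 0.72. mt-Nd1, at the root of the membrane arm, went from 2675 and 2800.4 CPM in control to 4221, 4431, 4783 and 4706 CPM and to 4359, 4394, 4578 and 5011 CPM. All anti-miR libraries exceeded both controls, with 0.73 ± 0.061 and 0.74 ± 0.061 (edgeR adjusted p = 2.23e-05 and 8.79e-06). mt-Nd2 had 0.81 and 0.89, mt-Nd4 0.34 and 0.40, mt-Nd5 0.57 and 0.61 and mt-Nd6 0.76 and 0.72, where mt-Nd5 under anti-miR-409-5p did not pass (edgeR adjusted p = 0.0526). These transcripts have a median GC content of 35.7%. Of these genes mt-Nd6 alone lies on the minus strand (chrM:13552-14070), and mt-Nd5 on the plus strand ends at 13565. The kit does not mark strand, so the counts of mt-Nd6 may include reads of the other strand. After the GC and length correction mt-Nd1 (0.27 and 0.18) and mt-Nd2 (0.20 and 0.16) were still higher, mt-Nd4 was lower (-0.28 and -0.36), and mt-Nd5 (0.036 and -0.024) and mt-Nd6 (0.019 and -0.17) did not pass. Without control replicate 1, 1 and 2 of the 5 passed, and without control replicate 2, 3 in each comparison.

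Other nuclear genes of oxidative phosphorylation moved like the complex I subunits. Over all tested genes, 12.2% fell and 15.6% rose under anti-miR-409-5p, and 15.4% fell and 17.6% rose under anti-miR-501-3p. Of 38 genes of complexes II to V, 23 fell under anti-miR-409-5p and 21 under anti-miR-501-3p, and 0 rose, with a median log2 fold change of -0.16 in each. Examples are Uqcr11 of complex III (-0.38 and -0.41) and Cox6b1 of complex IV (-0.24 and -0.26), and after the GC and length correction 9 and 10 of the 38 were lower, with medians of -0.081 and -0.097. The counts were 3 and 5 without control replicate 1. Of 77 tested genes of mitochondrial ribosomal proteins, 19 fell and 2 rose under anti-miR-409-5p and 25 fell and 2 rose under anti-miR-501-3p; the median was -0.10 in each. Of 11 tested assembly factors outside the Nduf symbols, Tmem70, which acts on the membrane arm and ATP synthase, rose in both comparisons (0.16 and 0.16, edgeR adjusted p = 0.0326 and 0.0269). Dmac2 fell under anti-miR-501-3p (-0.20, edgeR adjusted p = 0.0182). With upper-quartile scaling 2 of these 11 fell and 0 rose in each comparison, so the Tmem70 call depended on the scaling.

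Among 18 regulators of mitochondrial gene expression, 3 fell and 3 rose under anti-miR-409-5p, and 5 fell and 5 rose under anti-miR-501-3p. The shares over all tested genes were 12.2% and 15.6% in the first comparison and 15.4% and 17.6% in the second. These counts are not read as particular to the regulators. The mitochondrial RNA polymerase gene Polrmt fell (-0.31 and -0.33, edgeR adjusted p = 0.00198 and 0.000841). The coactivator gene Ppargc1a rose (0.30 and 0.35, edgeR adjusted p = 0.00349 and 0.00075), as did Gabpa, the DNA-binding subunit of GABP (0.30 and 0.37, edgeR adjusted p = 0.005 and 0.000696). Nrf1, named after its values were seen, had -0.063 and -0.073 and did not pass (edgeR adjusted p = 0.554 and 0.467). After the GC and length correction 0 of these genes were lower and 1 higher in each comparison.

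The authors' deposited table listed 17 subunits lower under anti-miR-409-5p and the authors' deposited table for anti-miR-501-3p listed 20, at an adjusted p of 0.05, with 0 higher in each. All of these were also called here. For Ndufs7 the authors' deposited table gives log2 fold changes of -0.36 and -0.36 (adjusted p = 0.000573 and 6.97e-05), and for Ndufaf4 the authors' deposited table gives 0.50 and 0.56 (adjusted p = 1.76e-07 and 5.82e-11).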

How the data were processed

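Gene counts of 10 libraries were used. The submitters' processing notes name STAR 2.5.2b, Subread 1.5.1 with featureCounts, FastQC 0.11.5 and build mm10. The annotation release, the strand setting and the treatment of multiply mapped reads are not given in the sources used here. The authors deposited a table of raw counts for each library, by Ensembl gene and with no normalization (whole numbers, unequal totals). The authors also deposited comparison tables with log2 fold changes, p-values and adjusted p-values and a normalised signal per library, per the file headers, and these were used only for the authors' calls. Of 48709 gene identifiers, 48349 matched GENCODE M21 (GRCm38).

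From the counts, R 4.3.3 and edgeR 4.0.16 (filterByExpr, TMM, robust quasi-likelihood test, two-sided, prior count of 2 for log2 CPM) fitted all 10 libraries as 3 groups, because control has only 2 libraries. A gene that passed a Benjamini-Hochberg adjusted p of 0.05 over all 16884 tested genes is said to rise or fall. The GC and length correction entered, as an offset, each library's spline trend (5 degrees of freedom) of log2 deviation on transcript GC content and log length, estimated from genes whose mean log2 CPM was above 1. Other alternatives were other scalings, filters, DESeq2 1.42.0, 1 surrogate variable from sva 3.50.0, a replicate block and leaving out each library. Same-numbered libraries of the anti-miRs had correlated deviations (r = 0.375, 0.164, 0.121 and 0.306 for numbers 1 to 4). Differently numbered pairs had r from -0.333 to 0.177, so numbers 2 and 3 were not set apart from them. Between control and the anti-miRs 2 numbers are shared (r from 0.042 to 0.359), which does not establish pairing. No replicates differed by less than sampling noise (chi-square per degree of freedom 1.59 to 10.9).

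The members and lists were chosen with earlier results of these data known. Genes were named by rule: every core N and Q module subunit, the 3 of smallest p in each other role, members that rose, the 3 of highest and lowest level per length, and those with a seed site. Other members are marked where they appear. One member is counted in all totals but is not reported here by name or drawn. The fit was also run on simulated counts with set fold changes in some genes and no GC or length trend. That run therefore could not test how such trends affect the calls.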

Additional observations from a re-analysis of the deposited data

Results flagged for a closer look

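In groups of 4 libraries, a library was looked for whose gap to its nearest neighbour exceeded Dixon's 95% critical value, as a share of the group's range. Of 92 groups of 4, 3 held such a library, where chance gives about 1 in 20. Ndufaf1 stood at 4.17 log2 CPM in anti-miR-409-5p replicate 3, above the next library at 4.07. Ndufaf1 also stood at 4.01 log2 CPM in anti-miR-501-3p replicate 1, below the next at 4.08. Ndufv2 reached 6.97 log2 CPM in anti-miR-501-3p replicate 4, against 6.83 in the next library. With all libraries, TMM scaling and no GC and length correction, neither gene passed edgeR's test in either comparison with control. Ndufv2 passed in both after that correction (above).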

How the results depend on the processing

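With 2 control libraries, most calls ended when control replicate 1 was left out (above). Whether this came from that library or from having only 1 control left was not tested. The GC and length correction gave 7 and 8 subunits lower (first under anti-miR-409-5p, then under anti-miR-501-3p), 0 and 0 assembly factors lower or higher and subunit medians of -0.076 and -0.076. With the replicate block added, the counts were 6 and 6 lower and 1 and 1 higher, assembly factors were 0, and the medians -0.042 and -0.061. The replicate block alone raised the subunits called higher to 1 and 1 (Ndufc2), left 1 assembly factor lower under anti-miR-409-5p and gave a median of -0.15 under anti-miR-501-3p. A surrogate variable gave 2 subunits lower, 0 assembly factors lower and a median of -0.082 under anti-miR-409-5p, and a median of -0.14 under anti-miR-501-3p. Medians under anti-miR-501-3p were -0.23 and -0.24 with upper-quartile and total-count scaling. Leaving out each library gave 2 to 21 and 6 to 22 subunits lower, 0 to 2 and 0 to 1 assembly factors lower, and medians of -0.19 to -0.13 and -0.20 to -0.15. The cause of these shifts was not tested.

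Among the genes named by rule, signs reversed as follows, as log2 fold changes. After the GC and length correction: Ndufa13 0.032 in each comparison, Ndufb7 0.054, Ndufab1 -0.0020 and Ndufs1 -0.12 under anti-miR-409-5p, and Ndufab1 -0.10, Ndufa4l2 0.12, Ndufb4 0.078, Ndufb9 0.023, Ndufs1 -0.078 and Ndufv2 -0.24 under anti-miR-501-3p. With the correction and the replicate block: Ndufb7 0.026 and Ndufs1 -0.11 (anti-miR-409-5p), and Ndufa4l2 0.27, Ndufab1 -0.031, Ndufaf8 0.042, Ndufb4 0.17, Ndufb9 0.0070, Ndufs1 -0.076 and Ndufv2 -0.23 (anti-miR-501-3p). With the block alone: Ndufs1 -0.0021 (anti-miR-409-5p), Ndufa4l2 0.072, Ndufb4 0.070 and Ndufv2 -0.0010 (anti-miR-501-3p). With a surrogate variable: Ndufb2 0.063 and Ndufs1 -0.015 (anti-miR-409-5p), and Ndufa4l2 0.043, Ndufb2 0.0074, Ndufb4 0.083 and Ndufv2 -0.014 (anti-miR-501-3p). With upper-quartile and total-count scaling: Ndufs1 -0.023 and -0.028 (anti-miR-409-5p), Ndufab1 -0.0022 and -0.010, and Ndufv2 -0.020 and -0.028 (anti-miR-501-3p). Leaving out each library: Ndufb2 -0.063 to 0.0039 (anti-miR-409-5p), Ndufa4l2 -0.38 to 0.24, Ndufab1 -0.010 to 0.080, Ndufb4 -0.11 to 0.046 and Ndufv2 -0.010 to 0.040 (anti-miR-501-3p). Of these genes Ndufa13, Ndufb7 and Ndufb9 were called before the correction, and the others were not called in the comparison named. Of the other called members, Ndufa8 turned to 0.020 under anti-miR-409-5p and Ndufb10 to 0.021 under anti-miR-501-3p after the GC and length correction, and to 0.015 and 0.0023 with the block added. Ndufb10 under anti-miR-409-5p, not called, turned to 0.066 and 0.047, and the remaining sign changes were all in members that were not called.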
